A study of Mus musculus with 8 samples.

Results

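The genes described here encode the cytosolic factors that start and extend protein synthesis. They were taken as every protein-coding row of the gene table whose symbol begins with Eif or Eef and a digit, leaving out the eIF2 kinases of the Eif2ak series, which gave 83 genes of 56748. Of these, 59 reached 1 FPKM (fragments scaled to gene length and library depth, as deposited by the authors) in at least 2 libraries and were tested, among 11818 genes tested in all. The remaining 24 were not tested, and 14 of them were at 0 in all 8 libraries. The study used 32D, a mouse myeloid line that depends on interleukin-3 and that had been transduced with murine Jak2WT or Jak2V617F, the activating mutation of myeloproliferative neoplasms. In each background, single-cell clones with intact glucose transporter genes (GLUT1/3 WT) were set beside clones in which both Slc2a1 and Slc2a3 had been edited with CRISPR-Cas9 (dKO). Each of the 4 groups had 2 clones, numbered 1 and 3 in the labels, so a group stands for 2 clonal lines. All cells spent 24 h in RPMI-1640 medium that held serum, glutamine at 1 mM, glucose at 5 mM and IL-3 at 2 ng/ml before poly(A) RNA was sequenced.

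Initiation begins when eIF2, a trimer that carries the initiator tRNA, joins the small ribosomal subunit together with eIF1, eIF1A, eIF5 and the large scaffold eIF3. The eIF4F complex, made of the cap-binding protein eIF4E, the scaffold eIF4G and the helicase eIF4A, brings this assembly to the capped end of an mRNA, and the 4E-binding proteins hold eIF4E back until mTORC1 phosphorylates them. Once a start codon is found, eIF5B joins the large subunit. The eEF1 complex then delivers aminoacyl-tRNA and eEF2 moves the ribosome along, while the kinase eEF2K slows elongation by phosphorylating eEF2. Growth factor signalling and nutrient supply act on mTORC1, and nutrient stress acts on the eIF2 kinases, largely through phosphorylation of these factors, a step that RNA levels do not show.

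Reads on genes ranged from 16846011 to 48884329 per library, and those on the 83 genes from 629816 to 2080149. Slc2a1 was lower in the dKO clones of both backgrounds (log2 fold changes of -2.20 in Jak2WT and -1.90 in Jak2V617F, limma adjusted p = 0.000872 and 0.000444). Slc2a3 was lower in Jak2V617F (-2.39, 0.0115), and in Jak2WT its -1.71 did not pass (0.0612). The Slc2a3 call was lost without the filter and without Jak2V617F GLUT1/3 WT clone 1 or dKO clone 3 (up to 0.0602). Jak2, at the gene level and so with the endogenous and the transduced copy together, had 258 and 243 FPKM in Jak2WT GLUT1/3 WT, 218 and 244 in Jak2WT dKO, 140 and 139 in Jak2V617F GLUT1/3 WT, and 152 and 165 in Jak2V617F dKO. It was lower in Jak2V617F by -0.84 with intact GLUT1/3 (limma adjusted p = 0.0012) and by -0.54 among dKO clones (0.00878), so each comparison of the backgrounds also compares these levels, whose part in the results was not tested. Of the 10 myeloid progenitor markers examined, 5 passed the filter and Kit and Cebpa were at 0 in every library, while the summed FPKM of 5 lymphoid markers stayed at or under 0.708 and that of 3 fibroblast markers at or under 0.0353. With 2 clones a group, an exact two-sided permutation test of a single gene has a smallest possible p of 0.333, so the adjusted p-values below rest on a spread that limma shares across genes and groups. Clones of a group carry separate labels, and the p-values rest on the spread between them. In the paper's supplement, the dKO clones of a background have a GLUT1 deletion of the same size. Whether these share a parent clone is not stated. Spread between independent transductions or edits was not measured.

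Translation factors were among the most abundant mRNAs of these cells. Over the 8 libraries, the 83 genes held 3.80 to 4.89% of the summed FPKM. The median of the mean FPKM was 45.7 over the 59 genes tested and 7.68 over all genes tested. Eef1a1, which encodes the GTPase that delivers aminoacyl-tRNA, ranked 2 of all genes by mean FPKM, and its share of the summed FPKM of the 83 genes was 42.1 to 47.8%. Next came the translocase gene Eef2 at rank 6, Eef1g at rank 40, Eif5a, whose product carries the hypusine residue, at rank 77, and Eef1b2 at rank 93. Initiation factor mRNAs were spread over a wide range below these. The highest member of the eIF3 scaffold was Eif3h (mean 331 FPKM over the 8 libraries), that of the cap complex was the helicase gene Eif4a1 (298), that of start codon selection was Eif1 (246), and that of initiator tRNA delivery was Eif2s3x (80.7). At the low end stood the methyltransferases that modify elongation factors, whose tested members had means from 4.67 FPKM for Eef2kmt to 15.7 FPKM for Eef1akmt1.

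**Figure D1:**
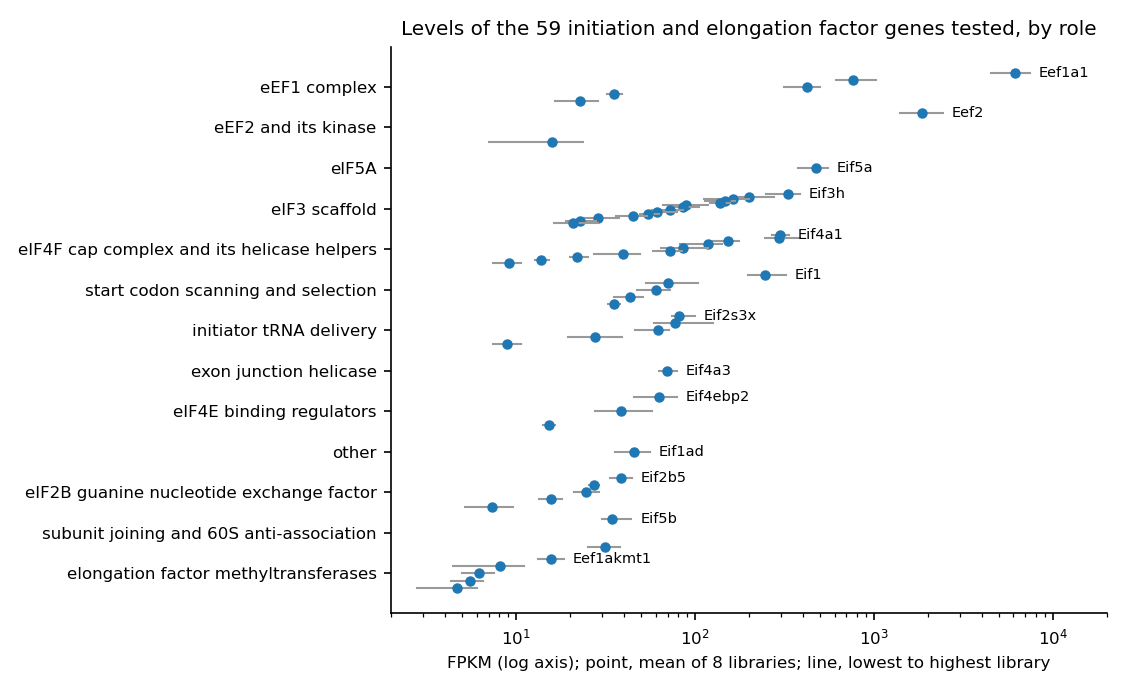
FPKM on a log axis of the 59 genes tested, grouped by role, with a point at the mean of the 8 libraries, a line from the lowest to the highest library, and the symbol of the highest gene of each role. Eef1a1 (6158 FPKM) and Eef2 (1839 FPKM) stand apart at the top, and the lowest mean is that of Eef2kmt (4.67 FPKM).

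Several members were silent or close to it. Of the 16 Eif1ad paralogs clustered on chromosome 12, 11 were at 0 in all libraries, while the parent gene Eif1ad on chromosome 19 had 35.8 to 56.0 FPKM. Eef1a2, the muscle and neuron form of eEF1A, was above 0 only in Jak2WT GLUT1/3 WT clone 3 (0.055 FPKM), against 4523 to 7402 for Eef1a1. Eif5a2 stayed at or under 0.035 FPKM beside 375 to 550 FPKM for Eif5a. The Y-linked Eif2s3y and the oocyte form Eif4e1b were at 0 throughout. Eif4ebp3 lay between 0.063 and 0.639 FPKM. Reads of close copies may have been divided by the counting, and how it treated shared reads is not given in the sources used here. This touches Eif4a1, which has a processed pseudogene, Eif4a-ps4, listed at 184 to 232 FPKM, Eef2 with Eef2-ps2 at 25.1 to 39.7 FPKM, and the near-identical pair Eif3j1 and Eif3j2.

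Promoter sequence was read for each member, and shares are given over the tested ones. The window ran from 250 bases before to 50 bases after the annotated start of the canonical transcript in GENCODE vM39 (GRCm39), on both strands, and was read for the E-box CACGTG bound by MYC and related proteins, for TGATGNAA, bound by ATF4 with its partners, and for TGACGTCA, the cyclic AMP response element, none of which contains another. CACGTG was present in 10 of the 59 members tested (16.95%) and in 1054 of 9686 windows of tested protein-coding genes (10.88%). Among the 59, TGATGNAA was found in Eif2s3x alone (1.695%, against 2.375% of all windows), and TGACGTCA in Eef2 alone (1.695%, against 3.49%). TGATGNAA was also present in members that were not tested, Eif4ebp3 and several Eif1ad paralogs, and CACGTG in Eif5a2. The CACGTG stretches upstream of the start are shown for members that moved in opposite directions between the backgrounds, Eef2, Eif3f and Eif3k upward and Eif4g1 downward (the call of Eif3k, 0.42, limma adjusted p = 0.0301, was lost on the same total, without the filter and without any one of the GLUT1/3 WT clones), with the motif in capitals, read on the strand of the gene. The motif begins 43 bases before the start in Eef2, 67 in Eif3f, 58 in Eif3k, and 78 and 9 in Eif4g1.
Eef2, chr10:81012402-81012447, forward strand: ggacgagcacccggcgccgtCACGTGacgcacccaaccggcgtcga
Eif3f, chr7:108533534-108533579, forward strand: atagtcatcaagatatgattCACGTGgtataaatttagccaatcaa
Eif3k, chr7:28681332-28681377, reverse strand: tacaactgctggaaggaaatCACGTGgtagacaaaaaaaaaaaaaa
Eif4g1, chr16:20491403-20491448, forward strand: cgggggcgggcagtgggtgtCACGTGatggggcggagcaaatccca
Eif4g1, chr16:20491472-20491517, forward strand: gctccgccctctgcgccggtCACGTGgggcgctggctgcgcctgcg
The other tested members with CACGTG were Eif5a, Eif3a, Eif4h, Eif1ad, Eef2k and Eef1akmt4. The motif was thus present in genes that rose, in genes that fell and in genes that did not pass any test, and a match describes letters only.

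The first question was how the factors differed between Jak2V617F and Jak2WT cells with intact GLUT1/3. Of the 59 genes, 27 were higher and 4 lower (limma adjusted p under 0.05), and among all genes tested 15.3% were higher and 14.9% lower, 30.3% in either direction. The median log2 fold change was 0.28 over the 59 genes and 0.01 over all genes tested. Both Jak2V617F clones lay above both Jak2WT clones for 35 of the 59 and below them for 13 (35.8% and 33.6% of all genes tested). Scaling every library to the same total FPKM moved the median of all genes to -0.12 in this comparison and to 0.12 in the difference of the dKO responses. On that scale 19 members were higher and 11 lower, all genes went from 1812 higher and 1765 lower to 1223 and 2930, and the members' median stood 0.25 above that of all genes, against 0.27 without the scaling. Without the filter 15 members were higher, beside 1297 of 25788 genes (5.03%). Leaving out either Jak2WT GLUT1/3 WT clone or Jak2V617F GLUT1/3 WT clone 1 left fewer members called higher, and fewer of all genes as well. Without Jak2WT GLUT1/3 WT clone 3 fewer members and fewer of all genes were also called lower. The members' median was 0.20 without Jak2WT GLUT1/3 WT clone 1, 0.32 without its clone 3 and 0.18 without Jak2V617F GLUT1/3 WT clone 1. That of all genes was 0.00, 0.02 and 0.00 in these fits. The calls of Eif2s2, Eif3f, Eif3e, Eif1, Eif3a, Eif4ebp1, Eif3d, Eef1b2, Eif4ebp2 and Eef2k held under all 16 alternatives. The summed FPKM of 8 erythroid markers was 94.0 to 112 in these Jak2WT clones and 553 to 910 in the Jak2V617F clones, and that of the myeloid progenitor markers 219 to 247 and 196 to 201. In the Jak2V617F clones the erythroid sum was mostly that of the globins Hba-a1 and Hbb-bs. Mast cell and basophil markers summed to 202 to 218 and 156 to 164 FPKM, and among them Cpa3, a mast cell protease, went from 94.8 and 78.2 FPKM in Jak2WT to 0.554 and 0.531 in Jak2V617F, while Gata2 of the same list, which made up nearly all of the Jak2V617F sum, went from 123 and 124 to 163 and 156. Of the 5 myeloid progenitor markers tested, Csf2rb had the lower group mean in Jak2V617F (176 and 129 FPKM), and Ptprc, Spi1, Il3ra and Prtn3 had higher ones. Their part in the result was not tested, and in bulk RNA fewer cells with a transcript and less of it per cell cannot be told apart.

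Among the dKO clones, 2 of the 59 genes were higher and 6 lower in Jak2V617F, against 7.12% higher and 9.96% lower (17.1% in either direction) among all genes tested, and the median was -0.06 for the members and -0.02 for all genes (-0.03 and 0.01 on the same total). Both Jak2V617F dKO clones lay above both Jak2WT dKO clones for 16 members and below them for 26 (27.5% and 33.1% of all genes tested). The higher calls were lost without any one of the Jak2WT clones or Jak2V617F dKO clone 1, and fewer members were lower without either Jak2WT dKO clone. Fewer of all genes were called in these fits as well. A fit of these groups alone gave 0 higher and 3 lower members, beside 3.69% and 5.01% of all genes. Eef2k and Eif3c kept their calls under all 16 alternatives. Erythroid markers summed to 246 to 290 FPKM in the Jak2WT dKO clones and 2582 to 4679 in the Jak2V617F dKO clones, and myeloid progenitor markers to 160 to 197 and 89.1 to 92.0. Of the 5 tested myeloid markers, Csf2rb (means of 132 and 52.1 FPKM), Ptprc (17.0 and 9.53) and Spi1 (16.5 and 12.8) had lower means in Jak2V617F, and Prtn3 (4.46 and 7.57) and Il3ra (8.20 and 8.44) higher ones. The mast cell and basophil markers summed to 167 to 222 and 121 to 162 FPKM. Of the 2 tested, Cpa3 had 100.5 and 50.8 FPKM in the Jak2WT dKO clones and 0 and 1.67 in the Jak2V617F dKO clones, while Gata2 had 120 and 116 in the former and 162 and 119 in the latter. The part of these markers was not tested.

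The second question was how the factors responded to the loss of GLUT1 and GLUT3. In Jak2WT, 10 of the 59 genes were higher in dKO and 0 lower (7.62% and 6.06% of all genes tested), with 2 lower at an unadjusted p under 0.05 and 1 lower by voom on the recovered reads, and the median was 0.14 against 0.01 over all genes. Both dKO clones lay above both GLUT1/3 WT clones for 36 members and below them for 9 (34.1% and 32% of all genes tested). After scaling to the same total, 10 were higher and 6 lower, all genes went from 901 higher and 716 lower to 706 and 1378, and the medians became 0.04 for the members and -0.07 for all genes. None of the 10 calls held when a Jak2WT clone was left out, apart from Eif1a without dKO clone 3. The number of higher members was 0 without GLUT1/3 WT clone 1, without its clone 3 and without dKO clone 1, 1 without dKO clone 3, and 4 without the filter. In the 4 fits without a Jak2WT clone the higher genes among all 11818 numbered 74, 101, 120 and 183 in place of 901. In Jak2V617F, 4 were higher and 13 lower, against 13.7% and 16.2% of all genes tested, so the share of members called in either direction, 28.8%, was close to the 29.9% of all genes. The median was -0.11 for the members and -0.02 for all genes, and it was -0.19 without GLUT1/3 WT clone 3 and -0.05 without GLUT1/3 WT clone 1. Both dKO clones lay above both GLUT1/3 WT clones for 11 members and below them for 27 (29.9% and 34.4% of all genes tested). The same total gave 9 higher and 11 lower members, and 2192 higher and 1452 lower genes in place of 1614 and 1919, with medians of -0.02 for the members and 0.06 for all genes. A fit of these groups alone gave 1 higher and 5 lower members, beside 6.46% and 7.22% of all genes. Without the filter 2 members were higher, beside 1244 of 25788 genes. Fewer members were called lower without Jak2V617F GLUT1/3 WT clone 1. Fewer were called higher without GLUT1/3 WT clone 3, either dKO clone or any one of the Jak2WT clones. The calls among all genes fell in these fits as well. Eif4g1, Eef1akmt2, Eif3a, Eif2a, Eif2s2 and Eif4ebp1 held under all 16 alternatives. The summed erythroid markers were higher in dKO than in GLUT1/3 WT clones of either background, at the values given above, while the erythroid regulator Gata1 had lower group means in dKO, 29.9 and 26.6 FPKM in Jak2WT and 53.4 and 37.6 in Jak2V617F, and Epor 3.78 and 3.49 in Jak2WT. The myeloid progenitor sum was lower in dKO in both backgrounds, at 160 to 197 FPKM against 219 to 247 in Jak2WT and 89.1 to 92.0 against 196 to 201 in Jak2V617F. Of the 5 tested, Il3ra in Jak2WT had the higher group mean in dKO (8.20 against 6.72 FPKM), and the other means were lower in dKO. The part of these markers was not tested.

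**Figure D2:**
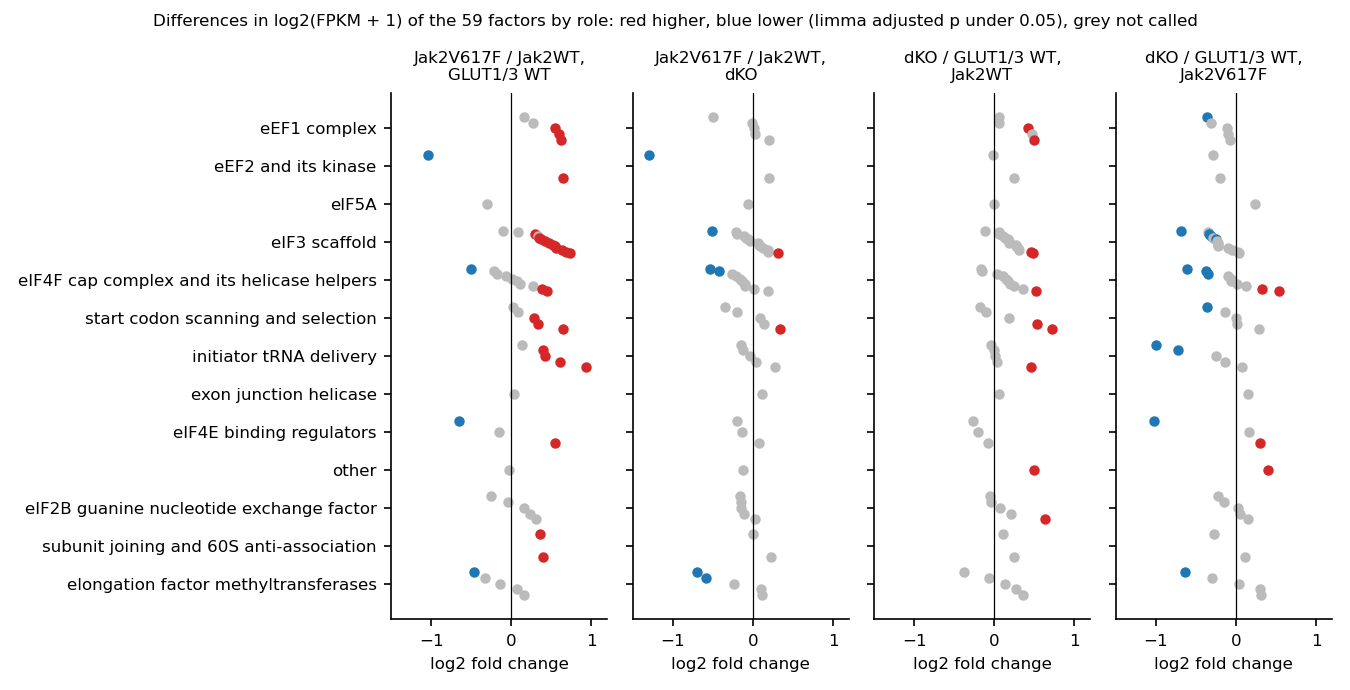
Difference in log2(FPKM + 1) of the 59 genes tested in the 4 comparisons, 1 point a gene, grouped by role; red is higher and blue lower at a limma adjusted p under 0.05, grey is not called. Of the 14 eIF3 genes, 11 are red between Jak2V617F and Jak2WT with intact GLUT1/3, and 4 are blue in dKO against GLUT1/3 WT in Jak2V617F.

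The third question was whether the response to dKO differed between the backgrounds. It did for 10 members. The change was more negative in Jak2V617F for 9 of the 59 and more positive for 1, against 5.91% and 4.72% (10.6% in either direction) of all genes tested. The median difference was -0.28 over the members and -0.04 over all genes, with 49 of the 59 negative. With the libraries scaled to the same total, 6 members were more negative and 3 more positive, all genes went from 698 more negative and 558 more positive to 393 and 1177, and the members' median was -0.09 where that of all genes was 0.12. None of the 10 calls held in every fit that left out a library. The number of more negative members was 0 without Jak2WT GLUT1/3 WT clone 1 or 3 or Jak2WT dKO clone 1, 3 without Jak2WT dKO clone 3, 1 without Jak2V617F GLUT1/3 WT clone 1 and 5 without Jak2V617F dKO clone 1, and the positive call was lost whichever library was left out. Among all genes, those more negative numbered 41, 3 and 36 in the first 3 of these fits in place of 698. Voom on the recovered reads gave 16 more negative and 1 more positive member, beside 895 and 919 of all genes (7.57% and 7.78%). The comparisons share libraries, since the Jak2V617F GLUT1/3 WT clones are the reference of the dKO response and the tested side of the background comparison, so their values are given side by side and no overlap is counted.

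**Figure D3:**
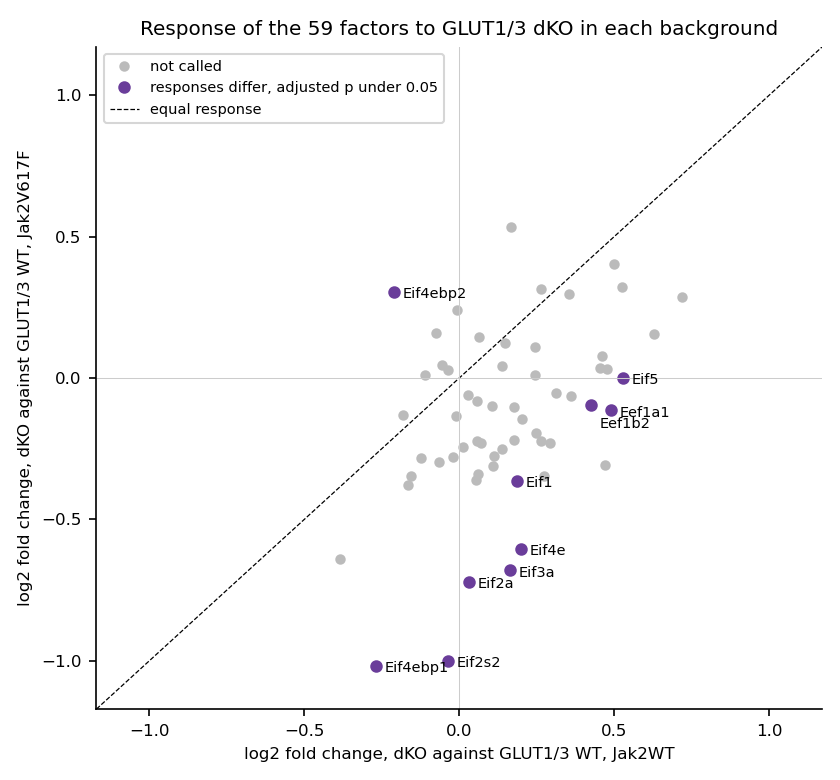
Log2 fold change of dKO against GLUT1/3 WT in Jak2WT (horizontal) and in Jak2V617F (vertical) for the 59 genes tested, with a dashed line where both are equal; purple points and symbols mark the 10 genes whose responses differ by the interaction term at an adjusted p under 0.05. Eif4ebp2 lies above the line and Eif2s2, Eif3a, Eif4e, Eif2a, Eif4ebp1, Eef1a1, Eif1, Eif5 and Eef1b2 lie below it.

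Among the factors that deliver the initiator tRNA, the beta subunit of eIF2 stood apart. Eif2s2 (ENSMUSG00000074656, chromosome 2, 154713330 to 154734855) was at 62.1 and 65.7 FPKM in Jak2WT GLUT1/3 WT clones 1 and 3, 63.3 and 61.2 in Jak2WT dKO, 126 and 119 in Jak2V617F GLUT1/3 WT, and 58.8 and 63.0 in Jak2V617F dKO. Only the Jak2V617F GLUT1/3 WT clones were high, and the other 6 libraries overlapped. Its log2 fold change was 0.93 between the backgrounds with intact GLUT1/3 (standard error 0.079, limma adjusted p = 0.000525) and -1.0 for dKO in Jak2V617F (adjusted p = 0.000459). In Jak2WT the dKO change was -0.04 (limma adjusted p = 0.797), and the difference of the dKO responses was -0.96 (0.00881), which reached 0.0504 without Jak2WT GLUT1/3 WT clone 1, 0.0544 without its clone 3 and 0.0503 without Jak2WT dKO clone 1. Eif2a, which encodes an initiator tRNA binding factor separate from the eIF2 trimer, had a like order of levels. It measured 24.3 and 24.4 FPKM in Jak2WT GLUT1/3 WT, 25.4 and 24.5 in Jak2WT dKO, 38.9 and 36.4 in Jak2V617F GLUT1/3 WT, and 19.4 and 26.0 in Jak2V617F dKO. The change with dKO in Jak2V617F was -0.72 (limma adjusted p = 0.00669) and the background difference with intact GLUT1/3 0.61 (0.0122), the latter lost without either Jak2WT GLUT1/3 WT clone or Jak2V617F GLUT1/3 WT clone 1, where it reached at most 0.064.

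The other subunits of the eIF2 trimer did not follow Eif2s2. Eif2s1, for the alpha subunit that the stress kinases phosphorylate, was at 45.8 and 51.0 FPKM in Jak2WT GLUT1/3 WT and higher in each of the other 6 libraries, at 60.1 to 71.2 FPKM. It rose with dKO in Jak2WT (log2 fold change 0.46, limma adjusted p = 0.0295) and was higher in Jak2V617F than in Jak2WT with intact GLUT1/3 (0.42, 0.0206). The first call was lost without any one of the Jak2WT clones, and the second without either Jak2WT GLUT1/3 WT clone or Jak2V617F GLUT1/3 WT clone 1. Eif2s3x, for the gamma subunit, had 74.7 and 85.2 FPKM in Jak2WT GLUT1/3 WT, 86.1 and 75.3 in Jak2WT dKO, 99.8 and 76.98 in Jak2V617F GLUT1/3 WT, and 73.7 and 74.0 in Jak2V617F dKO, and passed no test, with its lowest adjusted p at 0.216. The ratio of Eif2s2 to Eif2s1 in FPKM was 1.36 and 1.29 in Jak2WT GLUT1/3 WT, 0.925 and 0.938 in Jak2WT dKO, 1.80 and 1.99 in Jak2V617F GLUT1/3 WT, and 0.826 and 0.955 in Jak2V617F dKO. The dKO clones of both backgrounds thus overlapped, and the GLUT1/3 WT clones lay above them. The 5 subunits of eIF2B, the exchange factor that recharges eIF2 with GTP, gave a single call, Eif2b3 in Jak2WT dKO. It was at 5.14 and 5.76 FPKM in GLUT1/3 WT and 9.59 and 8.37 in dKO there (log2 fold change 0.63, limma adjusted p = 0.019), lost without any one of the Jak2WT clones, and at 7.87 and 6.19 FPKM in Jak2V617F GLUT1/3 WT and 7.95 and 7.83 in Jak2V617F dKO. Eif2b5, the highest of the 5 at a mean of 38.5 FPKM, had 39.9 and 44.2 in Jak2WT GLUT1/3 WT, 41.2 and 39.6 in Jak2WT dKO, 37.2 and 33.2 in Jak2V617F GLUT1/3 WT, and 37.1 and 35.6 in Jak2V617F dKO, and it passed no test.

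Of the 14 genes of the eIF3 scaffold, 11 were higher and 0 lower in Jak2V617F than in Jak2WT with intact GLUT1/3, with a median of 0.44, beside 15.3% and 14.9% of all genes tested. On the same total 7 were higher and 1 lower, with a median of 0.29, beside 10.3% and 24.8% of all genes. Calls were also made in initiator tRNA delivery (4 higher of 5, and 3 on the same total) and subunit joining (2 of 2, and 0 on the same total). The 4 went to 1, Eif2s2, without either Jak2WT GLUT1/3 WT clone or Jak2V617F GLUT1/3 WT clone 1, and the 2 to 0 without any one of the Jak2WT clones or Jak2V617F GLUT1/3 WT clone 1. Of the 11 eIF3 calls, 5 held without Jak2WT GLUT1/3 WT clone 1, 4 without its clone 3 (Eif3f, Eif3e, Eif3a and Eif3d) and 6 without Jak2V617F GLUT1/3 WT clone 1. Eif3f had 112 and 115 FPKM in Jak2WT GLUT1/3 WT, 159 and 152 in Jak2WT dKO, 194 and 184 in Jak2V617F GLUT1/3 WT, and 200 and 187 in Jak2V617F dKO. The Jak2WT GLUT1/3 WT clones were lowest and the Jak2V617F clones highest whatever their GLUT1/3 status. Its log2 fold change was 0.73 between the backgrounds with intact GLUT1/3 (limma adjusted p = 0.00125), 0.31 among dKO clones (0.036) and 0.45 with dKO in Jak2WT (0.0141). The last was lost without any one of the Jak2WT clones, and that among dKO clones without any one of these or Jak2V617F dKO clone 1, with adjusted p up to 0.165. Eif3e, at 65.8 and 70.5 FPKM in Jak2WT GLUT1/3 WT and 118 and 102 in Jak2V617F GLUT1/3 WT, changed by 0.68 (limma adjusted p = 0.00447), and its dKO clones lay between, at 88.1 and 76.4 in Jak2WT and 89.8 and 98.2 in Jak2V617F.

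Eif3a, the largest subunit, behaved differently from Eif3f. It had 175 and 170 FPKM in Jak2WT GLUT1/3 WT, 179 and 209 in Jak2WT dKO, 274 and 262 in Jak2V617F GLUT1/3 WT, and 176 and 159 in Jak2V617F dKO. As with Eif2s2, the Jak2V617F GLUT1/3 WT clones stood above the other 6. The log2 fold change was 0.64 between the backgrounds with intact GLUT1/3 (limma adjusted p = 0.00433) and -0.68 with dKO in Jak2V617F (0.00324), and the difference of the dKO responses was -0.85 (0.0177). That difference missed the threshold without either Jak2WT GLUT1/3 WT clone (adjusted p = 0.0699 and 0.0805), Jak2WT dKO clone 1 (0.0503) or Jak2V617F GLUT1/3 WT clone 1 (0.055). Eif3c, Eif3d and Eif3i were the other eIF3 genes lower in Jak2V617F dKO, by -0.34, -0.31 and -0.25 on the log2 scale, and the calls of Eif3d and Eif3i were lost on the same total. All 3 calls were lost without Jak2V617F GLUT1/3 WT clone 1 or dKO clone 1, that of Eif3d also without any one of the Jak2WT clones and that of Eif3i whichever library was left out. Eif3c was also lower in Jak2V617F dKO than in Jak2WT dKO, at 113 and 119 against 164 and 167 FPKM (log2 fold change -0.51, limma adjusted p = 0.00657), while with intact GLUT1/3 it had 152 and 142 FPKM in Jak2V617F and 154 and 163 in Jak2WT (-0.11, limma adjusted p = 0.334). Eif3h, the highest of the 14, had 252 and 249 FPKM in Jak2WT GLUT1/3 WT, 367 and 331 in Jak2WT dKO, 385 and 333 in Jak2V617F GLUT1/3 WT, and 367 and 365 in Jak2V617F dKO. It was called higher with dKO in Jak2WT (0.48, limma adjusted p = 0.0228) and in Jak2V617F with intact GLUT1/3 (0.51, 0.00812), the former lost without any one of the Jak2WT clones and the latter without either Jak2WT GLUT1/3 WT clone. No eIF3 gene was called higher with dKO in Jak2V617F.

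Among the start codon selection factors, Eif1, whose product keeps scanning ribosomes from stopping at wrong codons, had 196 and 205 FPKM in Jak2WT GLUT1/3 WT, 229 and 228 in Jak2WT dKO, 306 and 321 in Jak2V617F GLUT1/3 WT, and 239 and 248 in Jak2V617F dKO. It was highest in the Jak2V617F GLUT1/3 WT clones, by 0.64 over Jak2WT (limma adjusted p = 0.0016), and fell with dKO by 0.36 (adjusted p = 0.0119), a call lost in a fit of these groups alone (0.0771). Its difference of the dKO responses was -0.55 (0.0254), lost on the same total and when any library but Jak2V617F dKO clone 3 was left out. Its paralog Eif1b had 38.7 and 43.3 FPKM in Jak2WT GLUT1/3 WT, 35.1 and 36.9 in Jak2WT dKO, 51.2 and 48.9 in Jak2V617F GLUT1/3 WT, and 46.4 and 44.8 in Jak2V617F dKO. All 4 of its Jak2V617F libraries lay above the Jak2WT ones. It was higher in Jak2V617F with intact GLUT1/3 (0.28, limma adjusted p = 0.039) and among dKO clones (0.33, 0.0356), the former lost on the same total and without any one of the Jak2WT or Jak2V617F GLUT1/3 WT clones, and the latter without any one of the Jak2WT or Jak2V617F dKO clones. Eif1a and Eif5 rose with dKO in Jak2WT. Eif1a had 53.2 and 59.6 FPKM in Jak2WT GLUT1/3 WT, 103 and 84.3 in Jak2WT dKO, 64.8 and 54.9 in Jak2V617F GLUT1/3 WT, and 71.7 and 74.2 in Jak2V617F dKO. Its log2 fold change with dKO was 0.72 in Jak2WT (limma adjusted p = 0.0149, lost without either GLUT1/3 WT clone or dKO clone 1) and 0.29 in Jak2V617F (0.129), and the difference of -0.43 did not pass (0.157). The X-linked paralog Eif1ax had 34.1 and 36.7 FPKM in Jak2WT GLUT1/3 WT, 32.4 and 32.9 in Jak2WT dKO, 38.0 and 33.6 in Jak2V617F GLUT1/3 WT, and 35.5 and 36.5 in Jak2V617F dKO, and passed no test. Eif5, for the GTPase activator of eIF2, had 47.1 and 50.1 FPKM in Jak2WT GLUT1/3 WT, 71.9 and 69.1 in Jak2WT dKO, 64.6 and 58.4 in Jak2V617F GLUT1/3 WT, and 60.8 and 61.9 in Jak2V617F dKO. It was higher in Jak2V617F with intact GLUT1/3 (0.33, limma adjusted p = 0.0212, lost without either Jak2WT GLUT1/3 WT clone or Jak2V617F GLUT1/3 WT clone 1). It rose by 0.53 with dKO in Jak2WT (limma adjusted p = 0.0106, lost without any one of the Jak2WT clones), and its response differed from that in Jak2V617F, where it was 0.00 (difference -0.53, 0.0342, lost without any library but Jak2V617F GLUT1/3 WT clone 3).

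**Figure D4:**
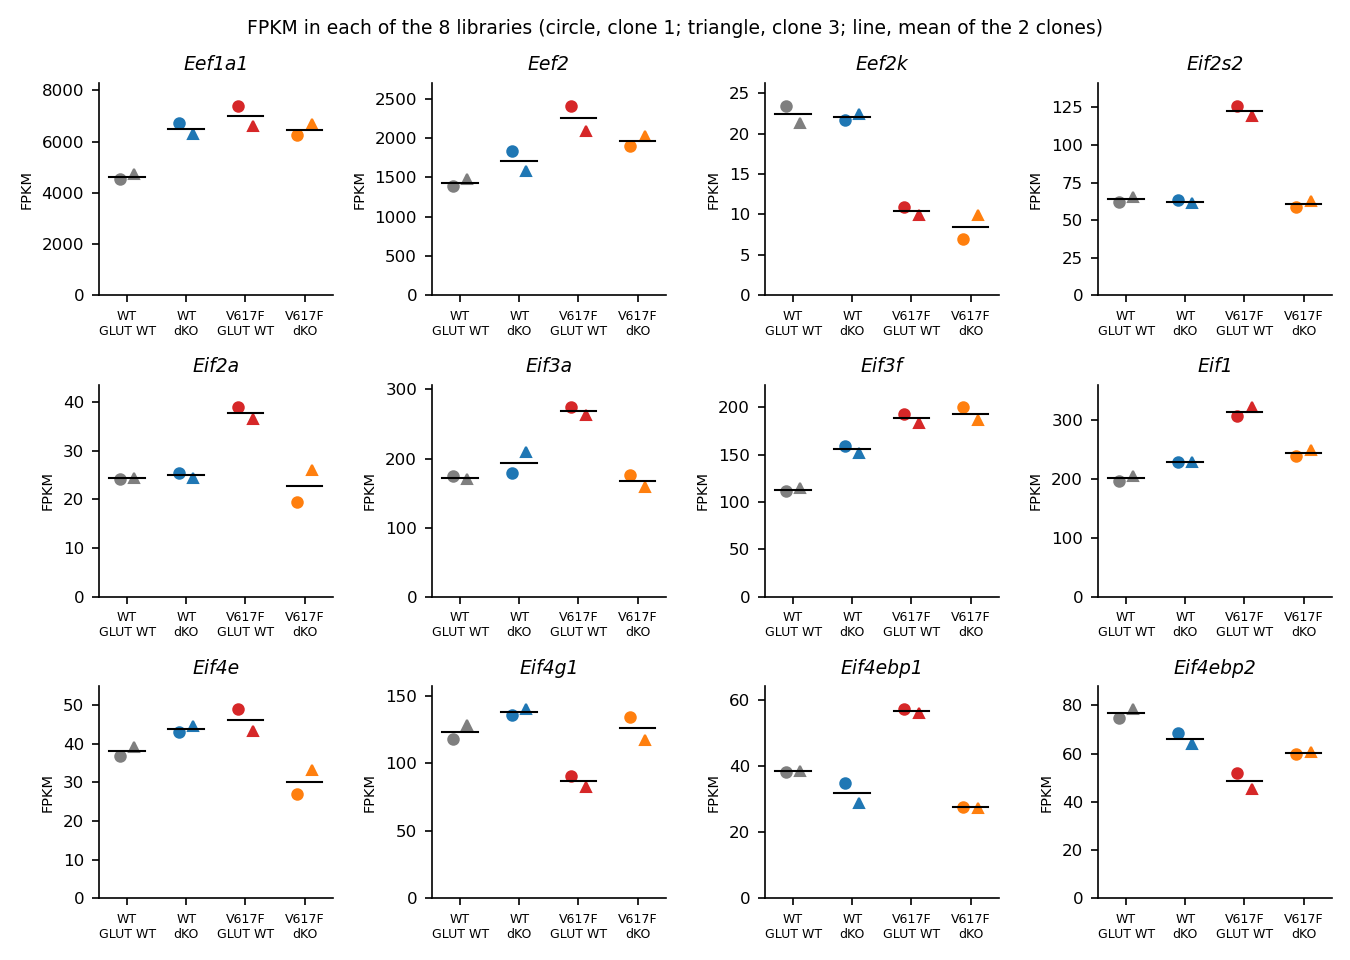
FPKM of 12 genes in each of the 8 libraries, with axes from 0, a circle for clone 1, a triangle for clone 3 and a line at the mean of the 2 clones of a group. Eif2s2, Eif2a, Eif3a, Eif1 and Eif4ebp1 are highest in the Jak2V617F GLUT1/3 WT clones, Eif4g1 and Eif4ebp2 are lowest there, and Eef2k is low in all 4 Jak2V617F libraries.

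Of the 10 tested genes of the cap-binding complex, 2 were higher and 1 lower in Jak2V617F with intact GLUT1/3 (15.3% and 14.9% of all genes tested), and 2 were higher and 3 lower with dKO in Jak2V617F (13.7% and 16.2%). The median change of the 10 was 0.04 and -0.06 in these comparisons, and on the same total both signs flipped, to -0.11 and 0.03. The counts on that scale were 2 higher and 3 lower in the first comparison and 2 and 3 in the second. Both higher calls of the first, Eif4g2 and Eif4b, were lost without Jak2WT GLUT1/3 WT clone 1 or Jak2V617F GLUT1/3 WT clone 1, and its lower call, Eif4g1, without Jak2WT GLUT1/3 WT clone 3. Eif4e, the cap-binding protein itself, had 37.0 and 39.1 FPKM in Jak2WT GLUT1/3 WT, 43.0 and 44.6 in Jak2WT dKO, 49.1 and 43.2 in Jak2V617F GLUT1/3 WT, and 27.0 and 33.1 in Jak2V617F dKO. The Jak2V617F dKO clones were lowest of all. The log2 fold change with dKO in Jak2V617F was -0.61 (limma adjusted p = 0.00811, and 0.0515 in a fit of these groups alone), that between the backgrounds among dKO clones was -0.53 (0.0197), and the difference of the dKO responses was -0.81 (0.027). The call among dKO clones was lost without either Jak2WT dKO clone or Jak2V617F dKO clone 1 (0.0724 to 0.0986), and the difference of the responses without any one of the Jak2WT clones or Jak2V617F GLUT1/3 WT clone 1. The scaffold gene Eif4g1 (chromosome 16, 20487063 to 20511634) went the other way. It had 118 and 129 FPKM in Jak2WT GLUT1/3 WT, 136 and 140 in Jak2WT dKO, 90.9 and 82.5 in Jak2V617F GLUT1/3 WT, and 135 and 118 in Jak2V617F dKO. Only the Jak2V617F GLUT1/3 WT clones were low. It rose by 0.53 with dKO in Jak2V617F (limma adjusted p = 0.00781) and was lower by -0.50 in Jak2V617F than in Jak2WT with intact GLUT1/3 (0.0095, and 0.0719 without Jak2WT GLUT1/3 WT clone 3), while its dKO response did not differ between the backgrounds at the threshold (difference 0.37, adjusted p = 0.131).

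Paralogs of the cap complex did not move together. Eif4g2, which lacks the eIF4E binding site, had 117 and 130 FPKM in Jak2WT GLUT1/3 WT, 166 and 153 in Jak2WT dKO, 175 and 162 in Jak2V617F GLUT1/3 WT, and 171 and 151 in Jak2V617F dKO. It was higher in Jak2V617F with intact GLUT1/3 (0.44, limma adjusted p = 0.016, lost without Jak2WT GLUT1/3 WT clone 1 or Jak2V617F GLUT1/3 WT clone 1). Eif4g3 had 21.2 and 21.3, 22.3 and 25.0, 20.5 and 19.9, and 22.8 and 21.3 FPKM in the same groups and passed no test. The ratio of Eif4g1 to Eif4g2 in FPKM was 1.00 and 0.986 in Jak2WT GLUT1/3 WT, 0.821 and 0.920 in Jak2WT dKO, 0.519 and 0.509 in Jak2V617F GLUT1/3 WT, and 0.787 and 0.776 in Jak2V617F dKO. Among the helicases, Eif4a2 had 82.3 and 74.1 FPKM in Jak2WT GLUT1/3 WT, 108 and 118 in Jak2WT dKO, 64.2 and 70.1 in Jak2V617F GLUT1/3 WT, and 80.6 and 87.7 in Jak2V617F dKO. It rose with dKO in both backgrounds, by 0.52 in Jak2WT (limma adjusted p = 0.0171) and 0.32 in Jak2V617F (0.043), with no difference between these at the threshold (0.359). The first was lost without any one of the Jak2WT clones (0.0691 to 0.116) and the second whichever library was left out (0.06 to 0.167). Eif4a1 had 268 and 286 FPKM, 333 and 323, 299 and 284, and 290 and 298 in the same order of groups, and Eif4a3, the exon junction helicase, had 62.7 and 70.0, 67.8 and 70.7, 70.3 and 65.6, and 71.7 and 78.8. Neither passed a test. Of the cap-binding paralogs, Eif4e2 had 13.2 and 13.1 FPKM, 14.6 and 13.9, 15.2 and 13.3, and 13.7 and 12.8 in that order, and Eif4e3 had 9.30 and 10.3, 10.6 and 9.41, 8.58 and 8.51, and 9.0 and 7.39. These did not pass either. The helicase helpers Eif4b and Eif4h fell with dKO in Jak2V617F, by 0.35 (adjusted p = 0.0284) and 0.38 (0.0223), and both were lost without Jak2V617F GLUT1/3 WT clone 1, without Jak2V617F dKO clone 3 and when only the 4 Jak2V617F libraries were fitted. That of Eif4b was also lost without Jak2V617F dKO clone 1 or any one of the Jak2WT clones. Eif4b had 269 and 284 FPKM in Jak2WT GLUT1/3 WT and 383 and 337 in Jak2V617F GLUT1/3 WT, a difference of 0.38 (limma adjusted p = 0.0202) that was lost without the filter, when only the 4 libraries compared were fitted, and without either Jak2WT GLUT1/3 WT clone or Jak2V617F GLUT1/3 WT clone 1 (up to 0.122).

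The 4E-binding proteins, which restrain eIF4E, switched rank. Eif4ebp1 (ENSMUSG00000031490, chromosome 8, 27750357 to 27766702) had 38.3 and 38.5 FPKM in Jak2WT GLUT1/3 WT, 34.9 and 28.8 in Jak2WT dKO, 57.3 and 56.0 in Jak2V617F GLUT1/3 WT, and 27.5 and 27.4 in Jak2V617F dKO. The Jak2V617F clones were thus highest with GLUT1/3 and lowest without. With dKO in Jak2V617F it fell by 1.02 (standard error 0.097, adjusted p = 0.000713), a decrease from 56.6 ± 0.936 to 27.4 ± 0.0316 FPKM (SD, n = 2 clones each). In Jak2WT its change was -0.27 (limma adjusted p = 0.11), and the difference of the responses was -0.75 (0.0213), lost without either Jak2WT GLUT1/3 WT clone, Jak2WT dKO clone 1 or Jak2V617F GLUT1/3 WT clone 1 (0.0623 to 0.0882). Eif4ebp2 had 74.8 and 78.6 FPKM in Jak2WT GLUT1/3 WT, 68.5 and 63.8 in Jak2WT dKO, 52.0 and 45.3 in Jak2V617F GLUT1/3 WT, and 59.9 and 60.5 in Jak2V617F dKO. It was lowest where Eif4ebp1 was highest, at -0.65 for Jak2V617F against Jak2WT with intact GLUT1/3 (limma adjusted p = 0.00281). It was higher with dKO in Jak2V617F (0.31, limma adjusted p = 0.0412), a call lost without any library but Jak2V617F GLUT1/3 WT clone 1 (0.0626 to 0.157). The FPKM of Eif4ebp1 was 1.10 and 1.24 times that of Eif4ebp2 in the Jak2V617F GLUT1/3 WT clones and 0.452 to 0.512 times in the other 6 libraries. Eif4enif1, for a protein that shuttles eIF4E into the nucleus, stayed between 14.1 and 16.4 FPKM.

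**Figure D5:**
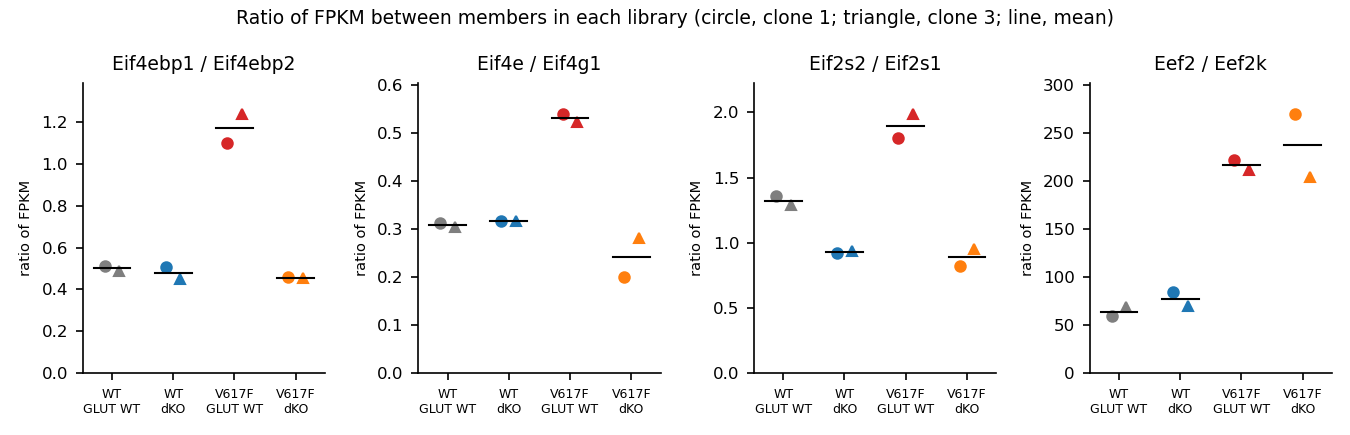
Ratio of FPKM between members in each library, with axes from 0, a circle for clone 1, a triangle for clone 3 and a line at the mean of the 2 clones. Eif4ebp1 over Eif4ebp2, Eif4e over Eif4g1 and Eif2s2 over Eif2s1 are highest in the Jak2V617F GLUT1/3 WT clones, and Eef2 over Eef2k separates all 4 Jak2V617F libraries (205 to 270) from the 4 Jak2WT libraries (59.3 to 84.9).

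The elongation factor mRNAs of Eef1a1, Eef2 and Eef1b2 were lowest in Jak2WT cells with intact GLUT1/3. Eef1a1 (chromosome 9, 78385731 to 78396433) had 4523 and 4740 FPKM there, 6745 and 6279 in Jak2WT dKO, 7402 and 6626 in Jak2V617F GLUT1/3 WT, and 6270 and 6679 in Jak2V617F dKO. The other 6 libraries overlapped across their groups. Its log2 fold change was 0.49 with dKO in Jak2WT (limma adjusted p = 0.0239), 0.60 for the background with intact GLUT1/3 (0.00555) and -0.11 with dKO in Jak2V617F (0.435). The responses differed by -0.60 (0.0413), lost with a pseudocount of 0.1 and whichever library was left out, and the first call was lost without any one of the Jak2WT clones. Without the filter, all its calls were lost (adjusted p up to 0.878). Eef1b2, the exchange factor that recharges eEF1A, followed the same order, at 314 and 338 FPKM in Jak2WT GLUT1/3 WT and 423 to 498 FPKM in the other 6. Its changes were 0.43 with dKO in Jak2WT (limma adjusted p = 0.0239, lost without any one of the Jak2WT clones) and 0.55 between the backgrounds with intact GLUT1/3 (0.00463). Eef1g, its partner, had 615 and 660 FPKM in Jak2WT GLUT1/3 WT, 671 and 653 in Jak2WT dKO, 1018 and 940 in Jak2V617F GLUT1/3 WT, and 758 and 765 in Jak2V617F dKO. It was higher in Jak2V617F with intact GLUT1/3 (0.62, limma adjusted p = 0.0026), a call that did not hold under all 16 alternatives. Its dKO change in Jak2WT was 0.05 (0.704). With dKO in Jak2V617F it fell by 0.36 (adjusted p = 0.0182, lost without GLUT1/3 WT clone 1 or either dKO clone). Eef1d, the other exchange factor, stayed between 32.1 and 38.9 FPKM. Eef1e1, whose product sits in the aminoacyl-tRNA synthetase complex, ranged from 16.4 to 28.5 FPKM and passed no test, with a difference of the dKO responses of -0.78 (limma adjusted p = 0.0542).

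Eef2 and its kinase moved in opposite directions between the backgrounds. Eef2 had 1389 and 1478 FPKM in Jak2WT GLUT1/3 WT, 1837 and 1580 in Jak2WT dKO, 2411 and 2090 in Jak2V617F GLUT1/3 WT, and 1894 and 2031 in Jak2V617F dKO. All 4 Jak2V617F libraries lay above the 4 of Jak2WT. The difference was 0.65 with intact GLUT1/3 (limma adjusted p = 0.00659, 0.0509 without Jak2WT GLUT1/3 WT clone 1 and 0.27 without the filter) and 0.20 among dKO clones (0.273). Eef2k (ENSMUSG00000035064, chromosome 7, 120442054 to 120506673) had 23.4 and 21.4 FPKM in Jak2WT GLUT1/3 WT, 21.6 and 22.4 in Jak2WT dKO, 10.9 and 9.88 in Jak2V617F GLUT1/3 WT, and 7.02 and 9.92 in Jak2V617F dKO. It was the member lowest in Jak2V617F relative to Jak2WT in both comparisons, at -1.04 with intact GLUT1/3 (standard error 0.14, limma adjusted p = 0.00263) and -1.30 among dKO clones (0.00199). The dKO changes of Eef2k were -0.02 in Jak2WT and -0.28 in Jak2V617F, and neither passed (limma adjusted p = 0.941 and 0.176). Eif5a had 460 and 550 FPKM in Jak2WT GLUT1/3 WT, 528 and 475 in Jak2WT dKO, 440 and 375 in Jak2V617F GLUT1/3 WT, and 478 and 484 in Jak2V617F dKO, and passed no test.

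Of the 5 tested methyltransferases of elongation factors, 1 was lower in Jak2V617F with intact GLUT1/3 and 2 among dKO clones, and 0 were higher in either comparison (14.9% and 9.96% of all genes tested were lower). On the same total 2 were lower in each. Eef2kmt, which modifies eEF2, had 5.84 and 6.03 FPKM in Jak2WT GLUT1/3 WT, 5.97 and 5.30 in Jak2WT dKO, 3.92 and 4.13 in Jak2V617F GLUT1/3 WT, and 3.41 and 2.80 in Jak2V617F dKO. Both backgrounds were apart with and without GLUT1/3. Its differences were -0.46 with intact GLUT1/3 (limma adjusted p = 0.0146, up to 0.0883 without either Jak2WT GLUT1/3 WT clone or Jak2V617F GLUT1/3 WT clone 1) and -0.70 among dKO clones (0.00568, and 0.05 without Jak2WT dKO clone 1). Eef1akmt2, which modifies eEF1A, had 10.6 and 11.0 FPKM in Jak2WT GLUT1/3 WT, 8.30 and 7.80 in Jak2WT dKO, 8.73 and 8.08 in Jak2V617F GLUT1/3 WT, and 4.40 and 5.75 in Jak2V617F dKO. It fell with dKO in Jak2V617F by 0.64 (adjusted p = 0.00688) and was lower in Jak2V617F among dKO clones (-0.58, limma adjusted p = 0.0154, lost without either Jak2WT dKO clone). The highest of these genes, Eef1akmt1, had 15.7 and 16.1 FPKM, 18.4 and 16.8, 14.2 and 14.4, and 13.2 and 16.5 in the same order of groups and passed no test. Eef1aknmt and Eef1akmt4 had higher group means in Jak2V617F than in Jak2WT, 5.75 and 5.03 FPKM and 4.99 and 4.72 with intact GLUT1/3, and 7.26 and 6.71 and 6.44 and 5.87 among dKO clones, and passed no test either. At such levels the added 1 of the log scale makes a fold change smaller than the ratio of the values. Of the factors that join or keep apart the subunits, Eif5b had 30.2 and 30.6 FPKM, 31.1 and 34.9, 44.0 and 36.7, and 35.2 and 31.0 in that order. Eif5b and Eif6 were both higher in Jak2V617F with intact GLUT1/3 (0.39 and 0.36, limma adjusted p = 0.0368 and 0.0321), neither on the same total nor without the filter, any one of the Jak2WT clones or Jak2V617F GLUT1/3 WT clone 1. Eif1ad, an eIF1A-like gene in no complex listed here, rose with dKO in both backgrounds, from 37.2 and 40.4 to 56.0 and 54.4 FPKM in Jak2WT (0.50, limma adjusted p = 0.0181) and from 40.3 and 35.8 to 53.1 and 48.1 in Jak2V617F (0.40, 0.018). The first was lost without any one of the Jak2WT clones. The second was lost without Jak2V617F GLUT1/3 WT clone 3 or dKO clone 1 and when only the Jak2V617F libraries were fitted.

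Around these factors, 40 further genes of the translation pathway were listed, and 39 were tested. In Jak2V617F against Jak2WT with intact GLUT1/3, 7 were higher and 3 lower (15.3% and 14.9% of all genes tested, as above), with Ppp1r15a (0.71, limma adjusted p = 0.0108) and Ppp1r15b (0.64, 0.00468), which direct the phosphatase of eIF2, and the eIF4A inhibitor Pdcd4 (0.64, 0.00248) at the top. Ppp1r15b and Pdcd4 kept these calls under all 16 alternatives, and Ppp1r15a lost its call without Jak2WT GLUT1/3 WT clone 3 or Jak2V617F GLUT1/3 WT clone 1 (up to 0.0704). The counts went to 4 and 0 without Jak2WT GLUT1/3 WT clone 1, 5 and 0 without its clone 3, 3 and 2 without Jak2V617F GLUT1/3 WT clone 1, 8 and 1 without its clone 3, and 7 and 6 on the same total. With dKO in Jak2V617F, 3 were higher and 11 lower, against 13.7% and 16.2% of all genes tested. Eif2ak2, the double-stranded RNA activated eIF2 kinase PKR, rose from 15.6 to 31.5 FPKM as group means (0.96, limma adjusted p = 0.00144), and Ppp1r15a (-0.84, 0.00586) and Paip1, a partner of the poly(A)-binding protein (-0.62, 0.0298), fell. The calls of Eif2ak2 and Ppp1r15a held under all 16 alternatives, and that of Paip1 under 8. With only the 4 Jak2V617F libraries fitted, 1 was higher and 4 lower. Without the filter 2 were higher and 6 lower. Fewer were called lower whichever library was left out, and fewest without Jak2V617F GLUT1/3 WT clone 1. Fewer were also called higher, apart from the fit without Jak2V617F GLUT1/3 WT clone 1. With dKO in Jak2WT, 3 were higher and 2 lower (7.62% and 6.06% of all genes tested), among them Dph3, of diphthamide synthesis on eEF2 (0.59, limma adjusted p = 0.0136), the ribosome rescue factor Pelo (0.58, 0.0225) and Pdcd4 (-0.44, 0.02). Without any one of the Jak2WT clones, 0 were higher and 0 lower. Among dKO clones, 2 were higher and 5 lower in Jak2V617F (7.12% and 9.96% of all genes tested), with Mknk2, a kinase of eIF4E (0.53, limma adjusted p = 0.024), and Pdcd4 (0.50, 0.00934) higher and Pelo lower (-0.48, 0.0324). These went to 2 and 0 with only the 4 dKO libraries fitted, 1 and 2 without the filter, and 4 and 6 by voom on the recovered reads. Fewer were called without any one of the Jak2WT clones or Jak2V617F dKO clone 1. More were higher and fewer lower without Jak2V617F dKO clone 3. The dKO response differed between the backgrounds for 3, all more negative in Jak2V617F (5.91% of all genes tested), Dph5 (-0.78, limma adjusted p = 0.0171), Denr (-0.71, 0.0397) and Pelo (-0.66, 0.0492). None of the 3 held without the filter or without any one of the Jak2WT clones or Jak2V617F GLUT1/3 WT clone 1, and that of Pelo was lost whichever library was left out. On the same total 3 were more positive and 2 more negative.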

How the data were processed

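RNA of 8 libraries from 32D clones was sequenced as poly(A) libraries in paired reads. The authors trimmed reads with fastp 1.0.1, aligned them to mm39 with HISAT2 2.2.1, counted genes with featureCounts 2.0.6 and deposited FPKM values. The annotation version, strand setting and treatment of shared reads are not given in the sources used here. Without strand, reads of a gene and an antisense partner cannot be told apart. Multiplied by gene length, 100% of the deposited values above 0 fell on whole steps of a size fixed per library (tolerance 0.01 step), so the reads could be recovered. Reads per gene differed between clones of a group by more than sampling noise (chi-square per gene 7.88 to 34.6).

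Each library was assigned to its group by the labels. All genes with at least 1 FPKM in at least 2 libraries were fitted with limma 3.58.1 (R 4.3.3, empirical Bayes with a trend) on log2(FPKM + 1), with 4 group means, 4 residual and 3.34 prior degrees of freedom and Benjamini-Hochberg adjustment over all genes, threshold 0.05. Fold changes are on that scale. Members, roles and lists were chosen with earlier results of these data known. Values in every library are given for the 5 largest calls in each direction of each comparison, the highest member of each role and a set of paralogs, apart from paralogs under 1 FPKM, which are given by their range. Of the other pathway genes the 3 largest calls are named. Further members named with values were chosen after these were seen. Members were matched to GENCODE vM39 by identifier, 83 of 83. Alternatives were a pseudocount of 0.1, no filter (genes above 0 in any library), a mean FPKM of at least 1, scaling to the same total or by median ratio, voom on recovered reads, only the groups compared, the clone number as a block, and leaving out each library. Python 3.11.15 and matplotlib 3.10.9 made the summaries and figures.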

Additional observations from a re-analysis of the deposited data

Results flagged for a closer look

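For 10 of the 59 genes the response to dKO differed between Jak2V617F and Jak2WT by the interaction term of the limma fit, given here as the log2 fold change in Jak2V617F minus that in Jak2WT. It was negative for Eif2s2 (-0.96, adjusted p = 0.00881), Eif3a (-0.85, 0.0177), Eif4e (-0.81, 0.027), Eif2a (-0.75, 0.043), Eif4ebp1 (-0.75, 0.0213), Eef1a1 (-0.60, 0.0413), Eif1 (-0.55, 0.0254), Eif5 (-0.53, 0.0342) and Eef1b2 (-0.52, 0.0417), and positive for Eif4ebp2 (0.52, 0.0466). Eif2s2, Eif3a, Eif2a, Eif4ebp1, Eif1 and Eif4e combined a fall with dKO in Jak2V617F that passed the threshold with a change in Jak2WT that did not. Eef1a1, Eef1b2 and Eif5 instead rose with dKO in Jak2WT and did not pass in Jak2V617F. Voom on the recovered reads called all 10. None of the 10 held without every one of the libraries in turn, and the lowest adjusted p over the 15 alternatives was 0.00136, for Eif2s2.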

How the results depend on the processing

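The counts of members called depended both on single libraries and on the processing. Over the fits that each left out a library, members higher with dKO in Jak2WT numbered 0 to 12 and lower 0 to 1. With dKO in Jak2V617F they numbered 1 to 4 higher and 7 to 14 lower. For Jak2V617F against Jak2WT with intact GLUT1/3 the ranges were 11 to 27 higher and 2 to 5 lower, and among dKO clones 0 to 2 higher and 2 to 9 lower. More positive and more negative dKO responses in Jak2V617F numbered 0 to 0 and 0 to 7. Without the filter, where 25788 genes were tested, members were 4 higher with dKO in Jak2WT, 2 higher with dKO in Jak2V617F, 15 higher in Jak2V617F with intact GLUT1/3, 0 higher and 3 lower among dKO clones, and 0 and 1 for the difference of the responses. Scaling to the same total gave 6 lower with dKO in Jak2WT, 9 higher with dKO in Jak2V617F, 11 lower in Jak2V617F with intact GLUT1/3 and 3 more positive responses. Voom on the recovered reads gave 1 lower with dKO in Jak2WT, 4 higher among dKO clones and 16 more negative responses. A fit of only the groups compared gave 1 lower with dKO in Jak2WT, 1 higher and 5 lower with dKO in Jak2V617F, and 0 higher and 3 lower among dKO clones. The numbers called among all genes changed in these fits as well. The cause of the changes was not tested.

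Clone numbers label separate clones, and the labels do not say whether same-numbered clones were handled together. The correlation of same-numbered deviations ran from -0.254 to 0.152 over the 6 pairs of groups. With the clone number as a replicate block, 2 members were higher with dKO in Jak2V617F, 0 higher among dKO clones, and 0 more positive and 5 more negative in the difference of the responses. Of 570 alternatives of the 36 member results given in full, 454 kept the direction and the call, 116 kept the direction alone and 0 reversed. A pseudocount of 0.1, the median ratio and the filter on the mean FPKM left every one of the 36 called.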
